A study of Mus musculus with 8 samples.

Results

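The genes described here are the 3 superoxide dismutase genes (Sod1, Sod2 and Sod3), the catalase gene Cat, and 6 genes that the transcription factor NRF2 is known to control: Nqo1, Hmox1, Gclc, Gclm, Txnrd1 and Srxn1. They were chosen by symbol and are 10 of the 24062 genes in the count table. All 10 passed the filter on low counts, which left 14393 genes. The rise of Sod3 with DS3201 in these libraries was known when the genes were chosen, so its values under DS3201 are given as a description with no test. Earlier results of these data were also known when the other genes and the gene lists below were chosen.

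The cells were 6KO iMEFs, an immortalized line of mouse embryonic fibroblasts. By the labels the line lacks 6 genes: Setdb1, Suv39h1, Suv39h2, Ehmt1 and Ehmt2, which encode H3K9 methyltransferases, and Ring1b, which encodes an H2A ubiquitin ligase of Polycomb repressive complex PRC1. Every group carried these deletions, so no library had the H3K9 enzymes or Ring1b intact. The 4 groups were cells with a control shRNA, cells with an shRNA against Ring1a, cells with the control shRNA grown with DS3201, and cells with the Ring1a shRNA grown with DS3201. DS3201 inhibits the catalytic activity of EZH1 and EZH2, the H3K27 methyltransferases, and was given at 1 uM for 7 days. Ring1a, gene symbol Ring1, is the partner copy of Ring1b, and its shRNA came by lentivirus with blasticidin selection. All cells grew in medium with 2-mercaptoethanol, a reducing agent. Whether the line is 1 clone is not given in the sources used here.

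Each group had 2 libraries of poly(A) RNA, one with the column prefix 20 and one with 28, called set 20 and set 28 below. The labels number replicates and batches 1 and 2 but do not tie them to these prefixes. Nothing in the labels says that the libraries came from separate cultures. Each p-value therefore sets a difference against the spread of these libraries only, and that spread may be technical. Total counts ran from 12738585 to 23688253 per library. Ring1 stood at 20.2 and 9.73 CPM (counts scaled by library size, set 20 then set 28) in control cells, 4.51 and 1.41 with the Ring1a shRNA, 20.4 and 7.51 with DS3201, and 3.52 and 2.04 with both. Within each set Ring1 was lower with the shRNA, although averaged over inhibitor states its change did not pass the test (log2 -2.33 ± 0.539 SE, edgeR adjusted p = 1, and 0.132 with the set as a block). The unadjusted edgeR p was 0.004, and 9.86e-06 with the block, in a comparison where 0% of all genes and repeat subfamilies passed. With both treatments against control Ring1 passed with the block only (log2 -2.39 ± 0.295, edgeR adjusted p = 0.00467, and 0.211 without it). The summed CPM of 14 fibroblast markers ran from 18300 to 21100 without DS3201 and from 12400 to 15000 with it. The number of them at 1 CPM or more went the other way, from 9 to 10 without DS3201 and 11 with it. Of these markers Lum was at 0 in the 4 libraries without DS3201 and Dcn in 1 of them, while Thy1 was at 0 in both set 28 libraries with DS3201 and Fap in both libraries with both treatments. The sum of 6 muscle markers ran from 704 to 1050 without DS3201 and from 326 to 655 with it, that of 6 epithelial markers from 65.8 to 99.9 and from 115 to 153, and that of 5 neuronal markers from 15.6 to 70.5 and from 70.5 to 126. These 3 sums rest on few genes. At 1 CPM or more stood 1 to 2 of the 6 muscle markers without DS3201 and 2 to 3 with it. For the 6 epithelial markers this was 1 to 2 in both cases, and for the 5 neuronal markers 1 to 2 and 3 to 4. Epcam was at 0 in the 4 libraries without DS3201. The sums of 5 endothelial markers (11.1 to 22.6, and 14.5 to 20.3) and of the 6 blood markers in the table (6.46 to 18.6, and 10.2 to 16.8) overlapped between libraries without and with DS3201, and Tyrobp was at 0 in all 8. The part of these marker levels in the results below was not tested. In bulk RNA, fewer cells of a type and less RNA per cell cannot be told apart.

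Superoxide dismutases turn superoxide into hydrogen peroxide and oxygen. SOD1 works in the cytosol, SOD2 in the mitochondrial matrix, and SOD3 is secreted and binds the extracellular matrix. The peroxide is then removed by catalase in peroxisomes and by the glutathione and thioredoxin systems. NRF2 (gene Nfe2l2) is held at low levels by KEAP1, which marks it for degradation. Oxidants or electrophiles modify KEAP1, NRF2 then accumulates, pairs with a small MAF protein and binds antioxidant response elements, whose core is often written TGACNNNGC, near its target genes.

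Promoter sequences from RefSeq (GRCm38.p6, the build mm10) were matched for 7 of the 10 genes; Sod3, Hmox1 and Gclc were not matched. The 250 bases before each start were searched on both strands for the core TGACNNNGC and for the wider TGANNNNGC, which includes it. The wider motif was present in 4 genes (Sod1, Gclm, Txnrd1 and Srxn1) and the stricter core in 3 of them (Sod1, Gclm and Txnrd1). Over 32851 RefSeq promoters of the same length, 35.2% held TGANNNNGC and 10.2% held TGACNNNGC. A match is a string of letters and says nothing here about binding. The sequences below show a single match (Sod1, Gclm), no match (Nqo1) and several matches (Srxn1). They run 5′ to 3′ on the strand of the gene and stop before the first annotated base of the gene, with each match in capitals. They cover chr16:90220512-90220753 (+ strand) for Sod1, chr3:122245307-122245486 (+ strand) for Gclm, chr8:107403207-107403455 (- strand) for Nqo1 and chr2:152105274-152105515 (+ strand) for Srxn1.

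Sod1: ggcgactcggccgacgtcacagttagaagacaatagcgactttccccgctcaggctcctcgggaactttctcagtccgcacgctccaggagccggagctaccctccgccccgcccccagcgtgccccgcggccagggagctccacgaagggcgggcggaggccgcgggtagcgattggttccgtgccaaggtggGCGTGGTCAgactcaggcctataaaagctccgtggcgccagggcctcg
Gclm: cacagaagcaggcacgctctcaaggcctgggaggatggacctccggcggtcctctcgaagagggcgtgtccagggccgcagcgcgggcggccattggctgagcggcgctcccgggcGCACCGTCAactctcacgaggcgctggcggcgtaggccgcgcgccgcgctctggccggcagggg
Nqo1: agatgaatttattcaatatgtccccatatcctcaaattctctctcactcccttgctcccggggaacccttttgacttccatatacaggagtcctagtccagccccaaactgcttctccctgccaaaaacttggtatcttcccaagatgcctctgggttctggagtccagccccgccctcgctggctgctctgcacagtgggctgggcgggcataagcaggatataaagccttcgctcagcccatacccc
Srxn1: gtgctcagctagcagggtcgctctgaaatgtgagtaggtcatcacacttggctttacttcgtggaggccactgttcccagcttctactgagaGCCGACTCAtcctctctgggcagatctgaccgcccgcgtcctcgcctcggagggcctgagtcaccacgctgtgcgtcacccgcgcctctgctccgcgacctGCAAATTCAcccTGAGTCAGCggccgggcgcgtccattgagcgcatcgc

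The match in Sod1 is TGACCACGC on the reverse strand, 56 bases before the RefSeq start. That in Gclm is TGACGGTGC on the reverse strand, 134 bases before the start used for its window, chr3:122245557. The first RefSeq base of Gclm is further upstream, at 122245487, and the printed sequence stops before it. Txnrd1 has 3 RefSeq starts: the second held TGACAAAGC 92 bases before it, the third TGAAACCGC 84 bases before it, both on the reverse strand, and the first held neither motif. The shares above are per promoter, while a gene with several starts, as Txnrd1, has several windows in which to match. Srxn1 held 3 matches to the wider motif, TGAGTCGGC, TGAATTTGC and TGAGTCAGC, and none to the stricter core. Cat, Nqo1 and Sod2 held neither. The observed to expected CpG ratio of these windows was 0.944 in Sod1, 1.07 in Gclm, 0.846 in Srxn1, 0.608 in Sod2, 0.383 in Cat, 0.304 in Nqo1, and 0.138, 0.861 and 0.732 at the 3 starts of Txnrd1, against a median of 0.373 over all promoters.

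In control cells the genes covered a wide range of levels. The mean control CPM was 301 for Txnrd1, 177 for Sod1, 163 for Hmox1, 161 for Cat, 81.6 for Sod2, 75.5 for Srxn1, 45.3 for Gclc, 44 for Gclm, 15.3 for Nqo1 and 0.0475 for Sod3. The order differs per kilobase of exon. That length joins all annotated exons of a gene, from 1553 bases for Nqo1 to 10008 for Sod2. Which transcripts the cells made is not known here, so the order per kilobase depends on the length used. Per kilobase of exon (GENCODE M21), the mean control level was 93.0 CPM per kb for Hmox1, 61.8 for Cat, 44.7 for Sod1, 42.4 for Txnrd1, 26.8 for Srxn1, 12 for Gclc, 9.82 for Nqo1, 8.16 for Sod2, 6.99 for Gclm and 0.0127 for Sod3. Among neighbours in this order, only Sod1 (42.1 to 47.3 CPM per kb) and Txnrd1 (41.8 to 43.0) overlapped between their 2 control libraries, and Nqo1 (9.55 to 10.1) lay just under Gclc (10.2 to 13.8). Sod3 was the only one of the 10 near 0 in control cells. With DS3201 and the control shRNA its mean was 6.83 CPM per kb, a level next to that of Gclm (8.82 CPM per kb) and Nqo1 (9.3) in the same cells.

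**Figure D1:**
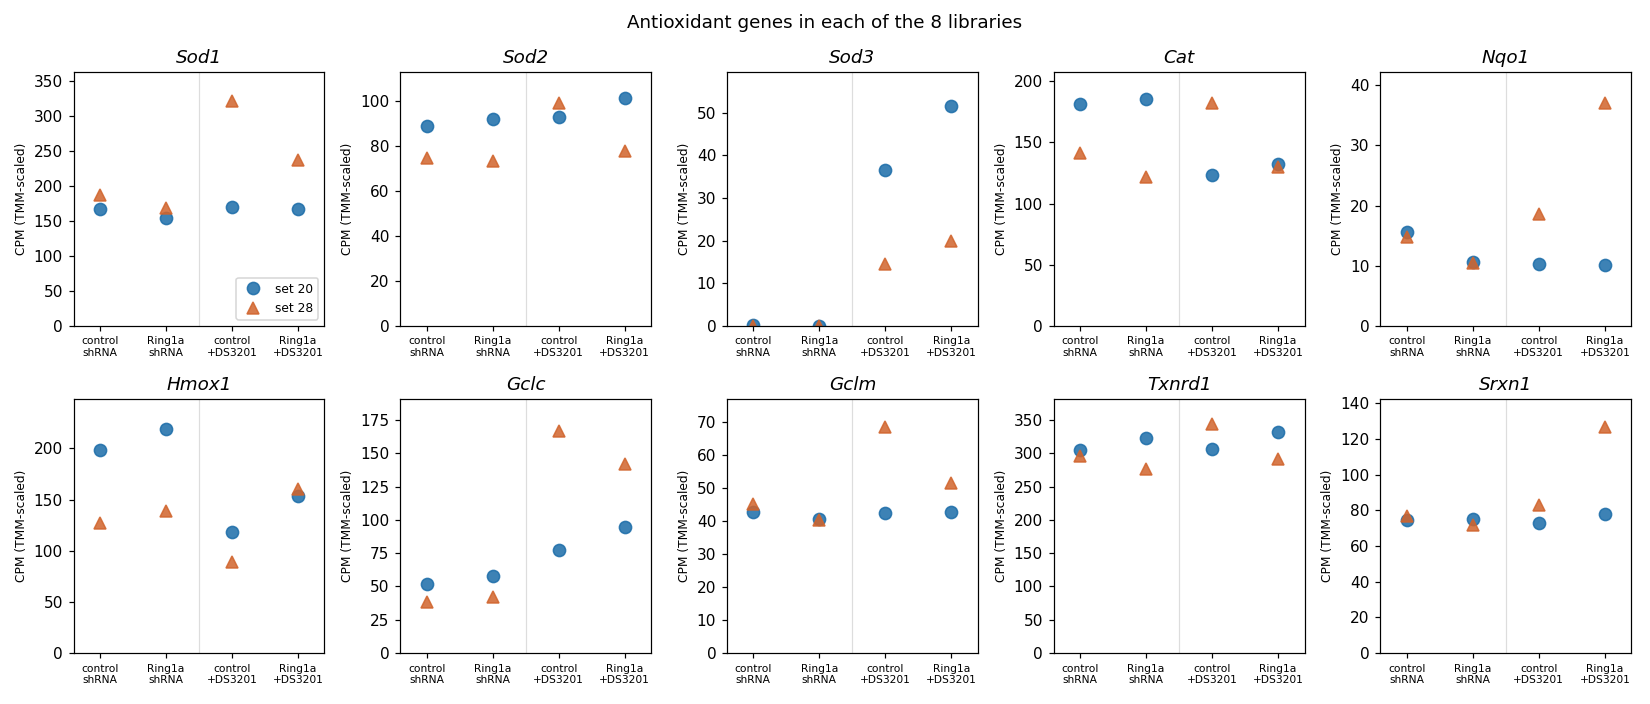
CPM of the 10 genes in the 8 libraries, 1 panel per gene with its own axis from 0, by group (circles set 20, triangles set 28). Sod3 is at or near 0 in the 4 libraries without DS3201 and between 14.6 and 51.6 CPM in the 4 with it. Gclc is the other gene whose libraries with DS3201 (77.2 to 167 CPM) all lie above those without (38.5 to 57.8 CPM).

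Sod3, the secreted dismutase, is a protein-coding gene at chr5, 52363791 to 52371418, on the plus strand (mm10). It had 2 and 0 counts in the control libraries (set 20, then set 28) and 0 and 0 with the Ring1a shRNA. With DS3201 it had 644 and 165 counts, 36.5 and 14.6 CPM, and with DS3201 in Ring1a shRNA cells 822 and 310 counts, 51.6 and 19.8 CPM. The groups with and without DS3201 did not overlap, a gap found upward in 12.3% of the 15287 entries tested (genes and repeat subfamilies). Sod3 passed the filter on low counts only through the libraries with DS3201. In both groups with DS3201 its level in set 20 was above that in set 28. Over the pooled counts the ratio of Sod3 with to without DS3201 was 502 in control shRNA cells, from 2 to 809 counts (95% counting interval 138 to 4150), and 334 if the 2 counts are replaced by the floor of 3 counts over the group. In Ring1a shRNA cells, where 0 counts were found, it was at least 472-fold higher, from 0 to 1132 counts, taking the same floor. Leaving out 1 library moved these values against the floor. With the control shRNA they were 139 without the set 20 control library, 196 without its set 28 library and 175 without the set 20 library of DS3201, and were 437 without its set 28 library. With the Ring1a shRNA they were 178 and 294 without the set 20 and set 28 libraries of that shRNA, and 261 and 679 without the set 20 and set 28 libraries of both treatments. These are the values that drew attention to the gene, and the intervals and floors cover counting error only. Within the DS3201 libraries, Sod3 was higher with the Ring1a shRNA by 0.50 on the log2 scale in set 20 and 0.44 in set 28. Sod3 without DS3201 was under the floor of 3 counts (0.122 to 0.202 CPM) in every library.

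The other dismutases were expressed in all 8 libraries with smaller differences. Sod1 (chr16, 90220754 to 90226329), the cytosolic copper-zinc enzyme, stood at 167 and 188 CPM in control cells, 155 and 168 with the Ring1a shRNA, 169 and 322 with DS3201, and 168 and 236.5 with both. The set 28 libraries with DS3201 were the highest, while the set 20 libraries with DS3201 lay within the range of the libraries without it. Averaged over both shRNAs the log2 difference was 0.40 ± 0.237 (SE), which did not pass the test (edgeR adjusted p = 0.463, and 0.167 with the set as a block). Sod2 (chr17, 13006846 to 13040063), the mitochondrial manganese enzyme, stood at 88.7 and 74.6 CPM in control cells, 91.8 and 73.3 with the Ring1a shRNA, 92.9 and 98.8 with DS3201, and 101 and 77.8 with both. Its groups overlapped, with a log2 difference of 0.17 ± 0.157 (edgeR adjusted p = 0.648).

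Cat (chr2, 103453849 to 103485160, minus strand), which encodes the peroxisomal enzyme that splits hydrogen peroxide, stood at 181 and 142 CPM in control cells and 186 and 122 with the Ring1a shRNA. With DS3201 it stood at 124 and 183 CPM, and with both at 133 and 130. The sets went opposite ways: with the control shRNA the within-set log2 change with DS3201 was -0.55 in set 20 and 0.37 in set 28, and with the Ring1a shRNA -0.48 and 0.10. Averaged, the log2 difference was -0.15 ± 0.209 and did not pass the test (edgeR adjusted p = 0.783). Whether the sets differ in their change was not tested, with 1 library for each group in each set.

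The glutathione genes Gclc and Gclm encode the catalytic and the modifier subunit of glutamate-cysteine ligase, the rate-limiting enzyme of glutathione synthesis. Gclc (chr9, 77754535 to 77794485) stood at 52.1 and 38.5 CPM in control cells, 57.8 and 41.9 with the Ring1a shRNA, 77.2 and 167 with DS3201, and 94.9 and 142 with both. All 4 libraries with DS3201 were above all 4 without it; over the 15287 entries tested (genes and repeat subfamilies), 12.3% had such a gap upward and 5.28% downward. Gclc was higher with DS3201 in both sets and with both shRNAs, by 0.57 and 0.72 on the log2 scale in set 20 and by 2.11 and 1.76 in set 28.

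Averaged over both shRNAs the log2 fold change of Gclc was 1.34 ± 0.298 (SE), just outside the threshold (edgeR adjusted p = 0.056). With the set as a block, which takes the difference between sets out of the spread, it was 1.29 ± 0.28 and passed (edgeR adjusted p = 0.0215). That call rested on several libraries: in the blocked fit with each library left out in turn, it passed in 3 of 8 fits. It was lost without the set 28 library of the control group (adjusted p = 0.0677), of Ring1a shRNA (0.0512), of DS3201 (0.0721) or of both together (0.0907), and without the set 20 library of both together (0.0808). The log2 fold change stayed between 0.96 and 1.59 over these 8 fits. In each shRNA background alone Gclc did not pass: 1.43 ± 0.423 with the control shRNA (edgeR adjusted p = 0.212, blocked 0.088) and 1.25 ± 0.421 with the Ring1a shRNA (0.325, blocked 0.135).

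Gclm (chr3, 122245557 to 122270732) was close to its level without DS3201 in set 20. It stood at 42.8 and 45.2 CPM in control cells, 40.5 and 40.5 with the Ring1a shRNA, 42.4 and 68.5 with DS3201, and 42.9 and 51.6 with both. Only the set 28 libraries with DS3201 lay above the range of the libraries without it. The log2 difference was 0.28 ± 0.185 (edgeR adjusted p = 0.515). The difference with DS3201 was larger for Gclc than for Gclm in both sets and with both shRNAs, a contrast between genes that was not tested.

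**Figure D2:**
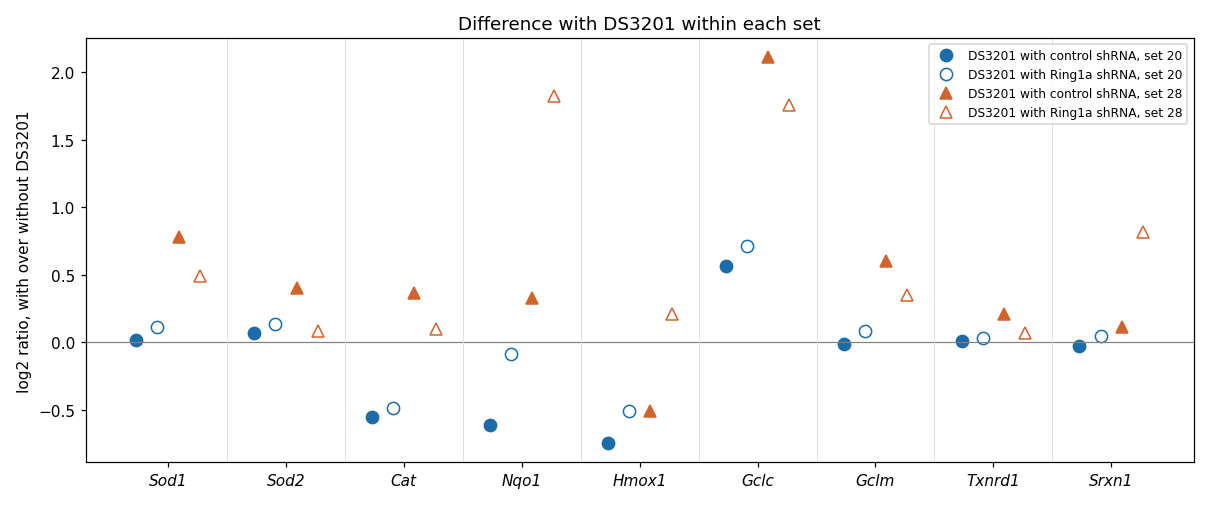
Log2 ratio of CPM with DS3201 to CPM without it, within set 20 and within set 28, for the 9 genes besides Sod3, with the control shRNA and with the Ring1a shRNA. Gclc is above 0 in all 4 ratios, from 0.57 to 2.11; Cat is below 0 in set 20 and above 0 in set 28.

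Nqo1 and Hmox1 are widely used readouts of NRF2 activity. Nqo1 (chr8, 107388225 to 107403206, minus strand) encodes a quinone reductase. It stood at 15.7 and 14.8 CPM in control cells, 10.7 and 10.4 with the Ring1a shRNA, 10.2 and 18.6 with DS3201, and 10.1 and 37.0 with both. The set 28 library with both was the highest of the 8, while the set 20 library with both was the lowest. The averaged log2 difference with DS3201 was 0.54 ± 0.419 (edgeR adjusted p = 0.582), and -0.08 without that set 28 library. With the Ring1a shRNA alone as the background it was 1.16 ± 0.597 (adjusted p = 0.699).

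Hmox1 (chr8, 75093621 to 75100589) encodes heme oxygenase 1, which breaks heme into biliverdin, iron and carbon monoxide. It stood at 199 and 127 CPM in control cells, 219 and 139 with the Ring1a shRNA, 119 and 89.0 with DS3201, and 154 and 161 with both. With the control shRNA it was lower with DS3201 in both sets, with log2 ratios of -0.74 and -0.51; with the Ring1a shRNA the values were -0.51 and 0.21. The averaged log2 difference was -0.42 ± 0.227 (edgeR adjusted p = 0.419, blocked 0.121), and with the control shRNA -0.65 ± 0.322 (0.491, blocked 0.121). None of these passed the test.

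Txnrd1 (chr10, 82833951 to 82897712), the cytosolic thioredoxin reductase, was the steadiest of the 10. It stood at 305 and 296 CPM in control cells, 323.5 and 276 with the Ring1a shRNA, 306.5 and 343 with DS3201, and 332 and 291 with both, a log2 difference of 0.08 ± 0.135 (edgeR adjusted p = 0.816). Srxn1 (chr2, 152105516 to 152111376) encodes sulfiredoxin, which restores over-oxidised peroxiredoxins. It stood between 72.0 and 76.8 CPM in the 4 libraries without DS3201, at 72.9 and 82.9 with DS3201, and at 78.0 and 127 with both. One library, set 28 with both treatments, stood apart from the other 7, and the log2 difference was 0.26 ± 0.18 (edgeR adjusted p = 0.536).

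**Figure D3:**
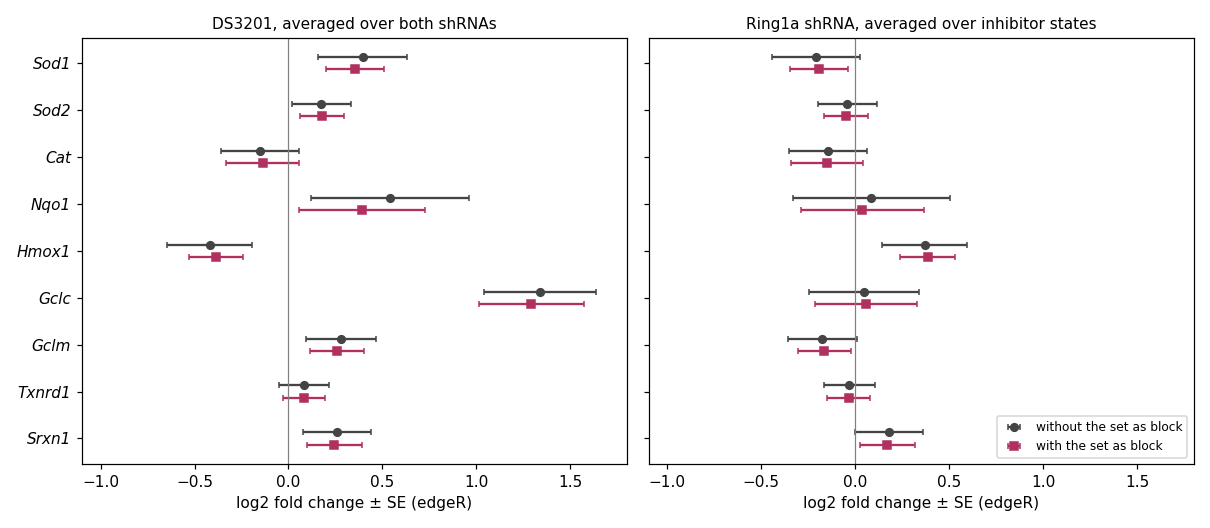
Log2 fold changes with standard errors of the 9 genes besides Sod3, for DS3201 averaged over both shRNAs and for Ring1a shRNA averaged over inhibitor states, from the fits without and with the set as a block. Gclc, at 1.34 without and 1.29 with the block, lies farthest from 0 under DS3201; for the Ring1a shRNA the values without the block run from -0.21 to 0.37, and Hmox1 has 0.39 with it.

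Counted together, 0 of the 9 genes besides Sod3 passed the edgeR test for DS3201 averaged over both shRNAs, where 5.24% of all entries were called higher and 0.216% lower. An unadjusted p under 0.05 was found for 1 of the 9, and for 2028 entries higher and 678 lower of the 15287. With the set as a block 1 of 9, Gclc, was called higher and 0 lower, where 12.9% of entries were called higher and 4.16% lower. A share of 1 in 9 is near that background. The median log2 difference of the 9 was 0.26, with 7 above 0 and 2 below, and the median of all entries was 0.04. DESeq2 also called 1 of the 9, Gclc, with a log2 fold change of 1.32 (DESeq2 adjusted p = 0.000671), where it called 8.79% of entries higher. Without the set 20 library of DS3201 the blocked fit called 4 of the 9 higher (Sod1, Sod2, Gclc and Gclm), where 22.8% of entries were called higher and 19.1% lower. The set 28 library of DS3201 was the highest of the 8 for 4 of the 10 genes, and also for 25.9% of all 14393 genes tested.

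The Ring1a shRNA, averaged over inhibitor states, took 0 of the 9 genes past the edgeR threshold in either fit, where 0% of all entries were called in either direction. Without the set 20 library of DS3201, the blocked fit called Sod1 and Gclm lower, where 10.9% of entries were called higher and 11.1% lower. Without a block, 252 entries higher and 216 lower had an unadjusted p under 0.05. The log2 differences of the 9 ran from -0.21 (Sod1) to 0.37 (Hmox1, ± 0.227, edgeR adjusted p = 1, blocked 0.479). Hmox1 was higher with the shRNA in both sets, by 0.14 and 0.13 without DS3201 and by 0.37 and 0.85 with it. For 0 of the 10 genes did the 4 libraries with the shRNA lie apart from the 4 without, a gap found upward in 0.863% and downward in 1.7% of entries.

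Both treatments against control shared the control libraries with the comparison of DS3201 alone. Against control, 0 of the 9 genes passed in either fit, where 1.43% of entries were called higher and 0.0327% lower without the block and 9.21% and 2.06% with it. Gclc had 1.38 ± 0.423 (edgeR adjusted p = 0.195, blocked 0.0749). With the control shRNA, DS3201 called 0 of the 9, beside 0.726% of entries higher and 0% lower (6.62% and 0.706% with the block, again with 0 of the 9). With the Ring1a shRNA it called 0 of the 9, beside 0.602% higher and 0% lower (6.05% and 0.824% with the block, again with 0 of the 9). The interaction, which asks whether DS3201 acts differently in Ring1a shRNA cells, called 0 of the 9 beside 0% of entries. Its widest value was 1.24 ± 0.838 for Nqo1 (edgeR adjusted p = 1), which was 0.01 without the set 28 library with both treatments.

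Other genes of the pathway were taken from 7 lists with 118 genes, of which 108 were tested. These lists were chosen with earlier results of these data known, so their p-values and shares are not independent of that choice. Averaged over both shRNAs, 3 rose with DS3201 and 0 fell, 2.78% of the 108, where 5.24% of all entries did. Of the 108, 6 genes, Heph among them, passed the low-count filter only through the libraries with DS3201 or only through those without, so that a difference was built in. Over the 102 pathway genes that reached the filter's minimum (0.644 CPM in at least 2 libraries) both with and without DS3201, 2 rose and 0 fell (1.96%), where 1.38% of the 13591 entries of that kind rose. Slc7a11, which encodes the cystine importer that feeds glutathione synthesis, rose by 3.59 ± 0.383 on the log2 scale (edgeR adjusted p = 0.00764), from 1.09 and 0.47 CPM in control cells and 1.58 and 0.808 with the Ring1a shRNA to 12.6 and 12.8 with DS3201 and 12.5 and 9.58 with both. Mgst1, a microsomal glutathione transferase, rose by 3.50 ± 0.304 (adjusted p = 0.00391), from 1.81 and 2.95 CPM and 1.46 and 2.83 to 30.2 and 24.6 and 25.6 and 21.5. Heph, which encodes the ferroxidase hephaestin, was at 0 and 0 CPM in control cells and 0 and 0.135 with the Ring1a shRNA, and at 20.5 and 17.0 with DS3201 and 14.3 and 10.9 with both. It reached the filter's minimum in 0 of the 4 libraries without DS3201, so its values are a description. For Slc7a11 and Mgst1 all 4 libraries with DS3201 lay above all 4 without it, a gap found upward in 12.3% of the 15287 entries. Averaged over both shRNAs, leaving out 1 library gave log2 fold changes of 3.35 to 3.93 for Slc7a11 and 3.27 to 3.76 for Mgst1. With the block they were 3.43 to 3.84 and 3.26 to 3.77. With the control shRNA alone Slc7a11 had 3.99 ± 0.554 (edgeR adjusted p = 0.0452). With the Ring1a shRNA it had 3.18 ± 0.53, which did not pass without the block (edgeR adjusted p = 0.062, blocked 0.00487). Mgst1 passed in both backgrounds (edgeR adjusted p = 0.0306 and 0.031).

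With the set as a block, 7 of the 108 passed upward (6.48%) and 12 downward (11.1%), where 12.9% and 4.16% of all entries did. Over the 102 genes at the minimum on both sides, 3 rose (2.94%) and 11 fell (10.8%), where 6.53% and 4.54% of the 13591 entries did. The 3 were Slc7a11, Mgst1 and Sesn3, a sestrin gene (2.56 ± 0.295, edgeR adjusted p = 0.00205). Gsta3 (a glutathione transferase), Msrb2 (a mitochondrial methionine sulfoxide reductase) and Abcc2 (an export pump for conjugates) reached the minimum in at most 1 library without DS3201, so they are given by level. Gsta3 stood at 0 to 0.202 CPM without DS3201 and 0.353 to 3.2 with it, Msrb2 at 0 to 0.738 and 3.68 to 4.6, and Abcc2 at 0 to 0.673 and 1.08 to 5.46. The 11 that fell included the glutathione transferases Gsta4, Gstm1 and Mgst3, with log2 changes of -1.0, -0.62 and -0.86. Mgst2, the other one past the threshold, reached the minimum in 0 of the 4 libraries with DS3201 and stood at 0.0671 to 2 CPM without it and 0 to 0.34 with it. Reads of the glutathione transferase and Ugt1a families could be split between near-identical copies, since the counting rule is not given, so their values are uncertain. Of the genes that supply NADPH, Pgd and Tkt of the pentose phosphate pathway and mitochondrial Idh2 fell, with log2 changes of -0.61, -0.47 and -0.49. Blvra, the biliverdin reductase, fell by 0.52 (edgeR adjusted p = 0.0479, and 0.333 without the block). The iron exporter Slc40a1 fell by 0.84 (0.0499, and 0.404 without the block). Ugt1a6a, a glucuronosyltransferase, fell by 1.11 and the pump Abcc1 by 0.79. Xdh, whose product xanthine oxidoreductase can make superoxide, fell by 1.13 ± 0.107 (edgeR adjusted p = 0.000961, and 0.649 without the block). Its sets lay far apart, at 122 and 21.4 CPM in control cells and 121 and 20.6 with the Ring1a shRNA. With DS3201 it stood at 61.4 and 9.36, and with both at 56.4 and 8.62, so libraries with and without DS3201 overlapped. Of the 12 falls, 0 passed without the block.

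By list, with the genes of 1 side included, DS3201 called 2 of 26 glutathione genes higher, 1 of 15 heme, iron and copper genes, and 0 in each of the other lists, with 0 lower in all 7. The heme, iron and copper gene was Heph, whose difference was built in by the filter. Of all entries 5.24% were called higher and 0.216% lower. Blocked, the counts were 3 higher and 4 lower of 26 glutathione genes, 2 and 0 of 16 thioredoxin and peroxiredoxin genes, 0 and 3 of 10 NADPH genes, 1 and 2 of 15 heme, iron and copper genes, 1 and 2 of 16 detoxification genes, and 0 and 1 of 10 oxidant sources. These counts include Gsta3, Msrb2, Heph and Abcc2 upward and Mgst2 downward, all genes of 1 side. Of all entries 12.9% were called higher and 4.16% lower. The 15 regulators gave 0 calls in either fit. Nfe2l2 itself stood at 107 and 92.8 CPM in control cells, 117 and 92.5 with the Ring1a shRNA, 120 and 139 with DS3201, and 119 and 105 with both (log2 0.24 ± 0.147, edgeR adjusted p = 0.476). Keap1 had a log2 difference of -0.15 (adjusted p = 0.706) and Bach1, a repressor that competes with NRF2, 0.33 (0.623). Ccs, the copper chaperone of SOD1, had -0.65 ± 0.251 (0.243). The median over the 108 genes was -0.10. For the Ring1a shRNA averaged over inhibitor states and for the interaction, 0 of the 108 passed in either fit on all 8 libraries. Without the set 20 library of DS3201, the blocked fit called 19 higher and 4 lower for the shRNA, where 10.9% and 11.1% of entries were called, and 13 and 2 for the interaction, where 6.72% and 6.21% were.

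**Figure D4:**
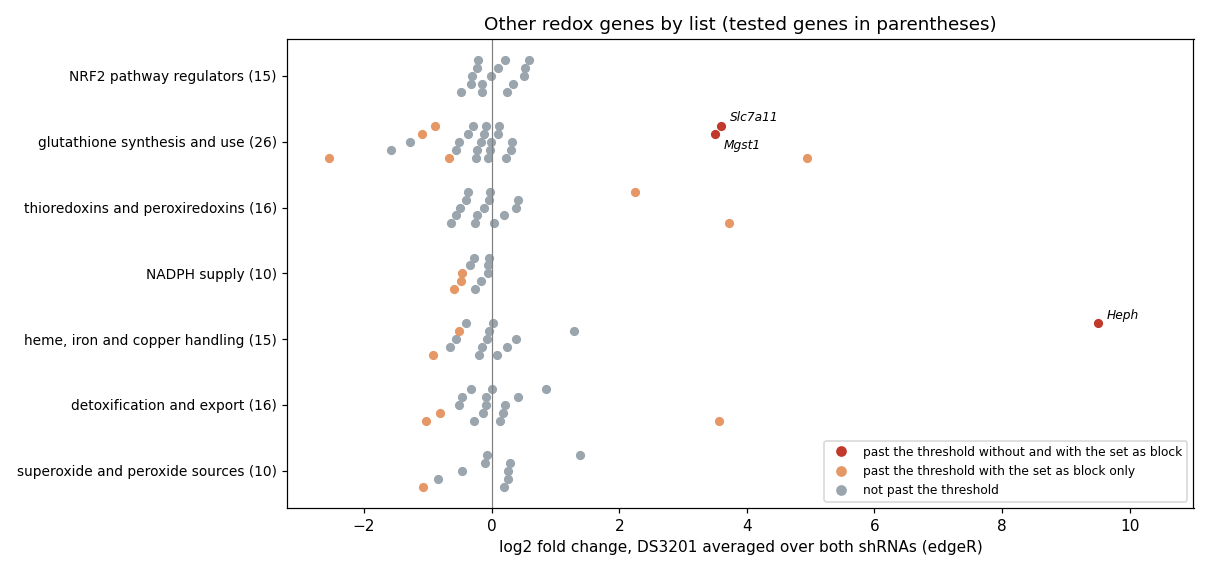
Log2 fold change with DS3201, averaged over both shRNAs, of the 108 tested pathway genes in 7 lists, each point a gene (red, called with and without the block; orange, called with the block; grey, not called). Slc7a11, Mgst1 and Heph are the red points, and 12 of the orange ones lie below 0; the fitted fold of Heph depends on the prior count since it had 0 counts in 3 libraries. The orange points above 3 are Gsta3, Msrb2 and Abcc2, near 0 without DS3201.

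As a description across the 8 libraries, which share treatment and depth, the log2 CPM of Sod1 and Gclm had r = 0.99, of Sod2 and Txnrd1 0.91, of Nqo1 and Srxn1 0.91 and of Sod3 and Gclc 0.82. Nqo1 and Srxn1 were both highest in the set 28 library with both treatments, at 37.0 and 127 CPM. Sod1 and Gclm were both highest in the set 28 libraries with DS3201. How far these r values rest on those libraries was not tested. Among 13140 named genes, 375 (2.85%) had r of at least 0.95 with Sod3. The 5 most alike were Eva1a, Ctsc, Abcg1, Nxf7 and Ednra, with r from 0.996 to 0.998. Ednra, the endothelin A receptor gene, was at 0 CPM in the 4 libraries without DS3201, at 10.6 and 4.59 with it, and at 8.92 and 5.75 with both. Eva1a stood at 0 to 0.0475 CPM without DS3201 and at 5.04 and 2.38, and 7.53 and 4.47, with it. Gclc, which has the next widest range, had 45 genes (0.342%) at that likeness, led by Foxc1 (r = 0.987), a forkhead transcription factor gene, at 13.1 to 15.8 CPM without DS3201 and 16.9 to 23.4 with it. Kcnj10, Nabp1, Cdyl and Plcl1 followed with r from 0.974 to 0.983. These genes are named for the likeness of their values only.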

How the data were processed

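The members and all gene lists were chosen with earlier results of these data known. The authors deposited raw counts per gene symbol and repeat subfamily, as whole numbers with different totals per library. Per the submitters' processing notes, Trim Galore trimmed the reads and TopHat2 mapped them to mm10. The sources used here do not give versions, the counting tool, its strand setting or its annotation. A further 8 columns fit no sample's labels and stayed out.

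The count test was edgeR 4.0.16 in R 4.3.3, with DESeq2 1.42.0 as an alternative: filterByExpr by group, TMM scaling, a robust quasi-likelihood fit on 8 libraries with 1 term per group, a two-sided F test, Benjamini-Hochberg adjustment over 15287 entries and a threshold of 0.05. Log2 CPM used a prior count of 2. The script was tested on simulated data. The 6 comparisons were DS3201 averaged over shRNAs, DS3201 in each shRNA background, the Ring1a shRNA averaged over inhibitor states, both against control, and their interaction. Standard errors come from the model.

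The labels number batches 1 and 2 but do not tie them to the prefixes 20 and 28. Differences of set 20 from set 28 correlated between groups with r from 0.559 to 0.897 over the entries, so the prefix served as the block in the alternative fit. Named genes were the members, Ring1, pathway genes past the threshold in either fit (at most 4 per list and direction, by smallest p), and the 5 genes most like Sod3 and Gclc. Nfe2l2, Keap1, Bach1 and Ccs were named after their values were seen. Alternatives were other scaling, filters and libraries, and no repeats. Counting intervals are exact at 95%. They cover counting error only, and leave out the spread between libraries. Reads lacking molecular identifiers can be copies of 1 molecule, in which case the intervals are too narrow.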

Additional observations from a re-analysis of the deposited data

How the results depend on the processing

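The limits are 2 libraries per group, sets that differ, and pairing that rests on column prefixes. Of 400 alternative log2 fold changes over 18 gene results, 381 kept their direction and side of the threshold, 14 newly passed it and 5 changed direction, none of them past the threshold.

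The count of the 9 genes besides Sod3 called higher went from 0 to 1 for DS3201 averaged over both shRNAs under DESeq2, with no filter on low counts and with the replicate block. Of all entries these 3 settings called 8.79%, 4.53% and 12.9% higher. With DS3201 in control shRNA cells and with both treatments against control, DESeq2 also gave 1 in place of 0, where it called 4.78% and 6.01% of entries higher. For DS3201 averaged, leaving out each library also moved this count without the block. The lone library left in a group is then assumed to vary like the others. Leaving out each library with the block was an alternative chosen after seeing the data. It moved the count called higher for DS3201 averaged, for DS3201 with the control shRNA and for both treatments against control. It also moved the count called lower for the Ring1a shRNA. The largest of these moves came without the set 20 library of DS3201. With all 8 libraries the block changed no other call of these 9 genes.

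For Gclc, averaged over both shRNAs, the adjusted p was 0.0578 with RLE size factors, 0.000671 with DESeq2, 0.043 with no filter, 0.154 with at least 10 counts in every library, 0.0541 without repeats and 0.0215 with the block. Leaving out each library without the block gave a log2 fold change of 0.97 to 1.56 and adjusted p of 0.0372 to 0.165. At least 10 counts in every library left Sod3 out.

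Direction changed for Nqo1 without the set 28 library of both treatments: the averaged value was -0.077 (range over libraries left out -0.077 to 0.83), -0.041 with the block, and -0.071 in Ring1a shRNA cells (range -0.071 to 1.81). With the block, Txnrd1 was -0.034 without the set 28 library of DS3201, and Cat was 0.077 without the set 20 library of DS3201 (range -0.40 to 0.077). The causes were not tested.

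Pathway genes called with DS3201 averaged, 3 higher and 0 lower, became 6 and 3 under DESeq2, where 8.79% of entries were called higher and 1.72% lower. They became 1 and 0 with at least 10 counts in every library (0.306% and 0.0161% of entries). With the block they became 7 and 12 (12.9% and 4.16% of entries). Leaving out each library also moved these counts. The largest moves came with the block and without the set 20 library of DS3201. Over genes at the filter's minimum both with and without DS3201, chosen after seeing the data, the counts were 2 and 0, and 3 and 11 with the block. For DS3201 with the control shRNA, with the Ring1a shRNA, and for both treatments against control, the counts of 3, 2 and 3 higher became 4, 6 and 6 with the block (2, 2 and 6 lower). They became 0 with at least 10 counts in every library, where 0.00806% of entries were called higher in each comparison. With only the libraries compared they also became 0, where 0%, 0.0136% and 0.00683% of entries were called higher. So few entries passed in these fits that a count of 0 says little about the pathway genes. DESeq2 gave 3, 4 and 4 (1, 0 and 1 lower). Of all entries, the block called 6.62%, 6.05% and 9.21% higher, and DESeq2 4.78%, 4.06% and 6.01%. The shares called lower were 0.706%, 0.824% and 2.06% with the block, and 0.438%, 0.249% and 0.824% with DESeq2. Leaving out each library also moved these counts, without and with the block, in fits where 1 library stood for its group.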
